A study of Homo sapiens with 2 samples.

Results

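Bidirectional coding promoters are short stretches of DNA from which 2 protein-coding genes are transcribed in opposite directions. They were found in the GENCODE release 44 annotation of hg19 by pairing each canonical start of a minus-strand coding gene with every canonical plus-strand coding start lying 0 to 1000 bp downstream of it. This gave 974 divergent pairs on chromosomes 1 to 22 and X, at 904 separate promoter loci, out of 18916 coding promoter regions in all. The pairs took in 1877 of 19819 coding genes (9.47%), and 67 loci held more than 1 pair because an annotated start had several partners (137 pairs). The region scored for each pair ran from 500 bp before the first start to 500 bp after the second, and each was compared with the 17942 coding starts that belonged to no pair, taken with 500 bp on either side and called single-gene promoters below.

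The data were NRF-1 ChIPmentation peak lists, a form of ChIP-seq in which a transposase adds the sequencing adapters to the bound chromatin, from U251, an established human glioblastoma cell line. One list came from cells transfected with a control siRNA (siControl) and the other from cells in which siRNA oligonucleotide #1 targeted AATF, a transcriptional co-factor (siAATF), and both used the same Diagenode NRF-1 antibody. Each condition had 1 deposited list, of 18014 peaks (siControl) and 18454 peaks (siAATF); the protocol states duplicates, but no value per replicate was in these lists, so no difference between the conditions could be tested. The labels give U251, whereas the design text of the series names U138. A peak carries a fold enrichment and a −log10 q value, which measures how unlikely the peak is under the background model of the peak caller. Because the number of reads behind each list is unknown, strength was compared between lists as a percentile rank by −log10 q within the own list, from 0 (weakest) to 100 (strongest). Intervals in brackets are exact 95% Clopper-Pearson intervals for shares, and 95% intervals from order statistics for medians. They cover counting error only, since promoters are not replicates of a condition, and they treat pairs of the same locus as separate.

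NRF-1, nuclear respiratory factor 1, binds as a dimer to a GC-rich palindrome and is best known as an activator of nuclear genes for the respiratory chain, the mitochondrial ribosome and mitochondrial protein import. Bidirectional promoters are usually CpG islands without a TATA box, and they often serve housekeeping genes for DNA repair, chromatin and mitochondria. NRF-1 sites are sensitive to DNA methylation, and a CpG island is the part of the genome where CpG is mostly unmethylated.

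The palindrome searched was GCGCATGCGC, the word GCGCA followed by its reverse complement, with up to 1 mismatch and called the core below. The stretches between the starts of 6 pairs are shown because they carry the strongest siControl peaks among pairs that had a core between starts 40 to 300 bp apart, with no annotated exon in between, and they let the space shared by both genes be read whole. Capitals mark the core, and all sequences are hg19, plus strand, so that the minus-strand gene lies to the left and the plus-strand gene to the right.
CEP19/PIGX, chr3:196439122-196439247: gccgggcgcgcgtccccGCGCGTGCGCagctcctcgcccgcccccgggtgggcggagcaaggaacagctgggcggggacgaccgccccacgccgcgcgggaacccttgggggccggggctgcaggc
UROS/BCCIP, chr10:127511828-127512114: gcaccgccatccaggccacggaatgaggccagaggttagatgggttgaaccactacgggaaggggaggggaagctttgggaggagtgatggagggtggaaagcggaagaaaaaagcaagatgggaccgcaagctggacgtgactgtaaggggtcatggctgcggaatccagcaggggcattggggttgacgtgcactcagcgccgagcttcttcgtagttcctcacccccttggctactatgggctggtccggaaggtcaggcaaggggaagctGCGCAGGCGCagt
XPO5/POLH, chr6:43543776-43543921: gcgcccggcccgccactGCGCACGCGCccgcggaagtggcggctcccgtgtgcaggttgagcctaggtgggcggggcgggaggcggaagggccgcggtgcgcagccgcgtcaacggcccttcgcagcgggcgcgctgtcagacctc
HEATR5B/GPATCH11, chr2:37311516-37311660: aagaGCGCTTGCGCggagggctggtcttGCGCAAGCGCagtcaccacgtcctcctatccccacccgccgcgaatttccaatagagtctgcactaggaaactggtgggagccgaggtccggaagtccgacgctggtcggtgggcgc
LYAR/ZBTB49, chr4:4291882-4291977: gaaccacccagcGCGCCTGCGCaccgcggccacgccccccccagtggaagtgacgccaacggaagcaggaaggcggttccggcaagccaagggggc
TSR3/GNPTG, chr16:1401880-1401931: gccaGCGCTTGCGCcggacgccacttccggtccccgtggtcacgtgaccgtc

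The 6 stretches measured 52 to 287 bp. The exact palindrome occurred in 0 of the 6, and the cores had 1 mismatch each. HEATR5B/GPATCH11 held 2 cores and the other pairs 1. The peak over CEP19/PIGX, which code for a centrosomal protein and a subunit of GPI-anchor mannosyltransferase, had a −log10 q of 106 in siControl and 94.8 in siAATF. At UROS/BCCIP, a heme synthesis enzyme and a partner of BRCA2, the values were 95.4 and 79.7, and at XPO5/POLH, the exporter of microRNA precursors and a translesion DNA polymerase, 93.9 and 83.5. The remaining 3 pairs lay between 70.5 and 78.4 in siControl and between 63.7 and 74.1 in siAATF.

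Of 25 loci with a nuclear OXPHOS subunit gene, the class the study was about, 8 held a core in the window. For the 4 pairs found with a core between the starts, 30 bases around 1 core are shown, again in capitals. In TIMM8B/SDHD and KIN/ATP5F1C the core was exact, and in the other pairs it was one of several with 1 mismatch.
CCDC127/SDHA, chr5:218259-218288: ggtccgctttGCGCAGGCGCggcgccccca
ATP5ME/MYL5, chr4:668124-668153: agctgggcgcACGCATGCGCcgtcagcggc
TIMM8B/SDHD, chr11:111957477-111957506: agctgtgtttGCGCATGCGCgacgggtgtg
KIN/ATP5F1C, chr10:7830108-7830137: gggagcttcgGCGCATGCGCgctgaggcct

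With all deposited peaks counted, nearly all divergent pairs had an NRF-1 peak in both conditions. In siControl 903 of 974 pairs had a peak (92.7%, 90.9 to 94.3), and in siAATF again 903 (92.7%). Over all coding promoter regions the share was 56.3% in siControl and 56.1% in siAATF. Of the single-gene promoters, 54.3% (53.5 to 55.0) were occupied in siControl and 54.1% (53.4 to 54.8) in siAATF. Both lists held a peak at 895 pairs, neither at 63. Pair regions were longer than single-gene windows by the distance between the starts, and in a window of equal length around the middle of the pair the shares were 92.5% and 92.7%. A pair region also covered both of its starts, so that a peak at either start counted. A single-gene window was built on a single start, and no share per start was computed. With only peaks of a −log10 q of at least 5, the shares of pairs were 78.5% (siControl) and 79.5% (siAATF). Those of single-gene promoters were then 45.6% and 45.4%.

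Divergence from a non-coding gene gave an intermediate value. Among single-gene promoters, 1859 had the start of a lncRNA, a long RNA that codes for no protein, within 1000 bp upstream on the opposite strand. Of these 82.8% (81.0 to 84.5) were occupied in siControl and 82.9% (81.2 to 84.6) in siAATF, against 50.97% and 50.8% of the other single-gene promoters. The intervals of the 3 classes did not overlap in either list.

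The pair windows also differed in base composition. In a window reaching 500 bp to either side of the middle of a pair, the median ratio of observed to expected CpG was 0.791, against 0.715 at single-gene promoters. Only 13 of 974 pairs had a ratio under 0.3, against 3819 of 17942 single-gene promoters (21.3%). Occupancy was therefore compared between windows of like CpG ratio.

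Pairs remained more often occupied within each class that held over 100 pairs. Between 0.5 and 0.7, 158 of 180 pairs had a siControl peak (87.8%, 82.1 to 92.2), against 55.1% (53.3 to 56.8) of single-gene promoters. Between 0.7 and 0.9 the shares were 94.8% (92.8 to 96.4) and 81.5% (80.6 to 82.4), and at 0.9 and over 99.3% (96.4 to 100.0) and 89.1% (87.7 to 90.4). Single-gene promoters divergent from a lncRNA lay closer to the pairs. Their siControl shares, in the same order of classes, were 69.6% (63.5 to 75.2), 88.5% (86.4 to 90.3) and 92.6% (89.7 to 94.8). Below 0.3, 1 of 13 pairs was occupied in each list. With the single-gene promoters weighted to the CpG classes of the pairs, a comparison added after the values were seen, their share came to 75.9% in siControl and 75.7% in siAATF. This weighting did not adjust for the second start in a pair region.

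**Figure D1:**
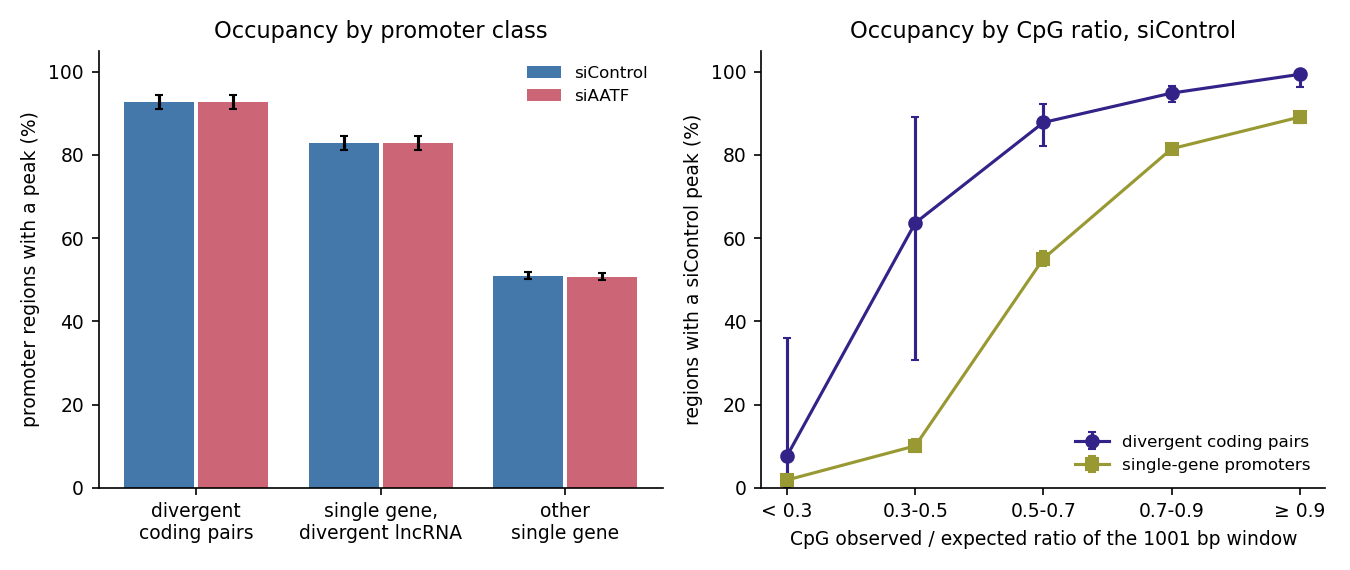
Left, the percentage of promoter regions with a peak in siControl (blue) and siAATF (red) for 3 promoter classes; right, the siControl percentage against the CpG observed over expected ratio for divergent pairs (circles) and single-gene promoters (squares), all with exact 95% intervals for counting error. Pairs stood at 92.7% in each list, and lay above single-gene promoters in all 5 CpG classes, with overlapping intervals in the class under 0.3.

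A single peak usually covered both starts. The distance between the starts ran from 11 to 1000 bp with a median of 234 bp, and 803 pairs (82.4%) had starts at most 500 bp apart. The strongest peak had a median width of 889 bp in siControl and 903 bp in siAATF at pairs. At single-gene promoters it was 854 and 865 bp wide. Most starts thus lay closer together than a peak is wide, so 1 peak near either start could cover both. Of the occupied pairs, the strongest peak spanned both starts in 746 of 903 in siControl (82.6%, 80.0 to 85.0) and 775 of 903 in siAATF (85.8%, 83.4 to 88.04). It spanned the minus-strand start alone at 71 and 55 pairs, and the plus-strand start alone at 70 and 61 pairs. Of the 895 pairs occupied in both lists, 725 were spanned in both, 18 in siControl alone and 47 in siAATF alone.

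Occupancy was alike at every spacing, whereas spanning was not. All 6 distance classes were between 89.5% and 95.2% occupied. With starts at most 50 bp apart the peak spanned both at every occupied pair (36 in siControl, 34 in siAATF). With starts over 300 and up to 500 bp apart it did so at 78.5% and 85.2%, and with starts over 500 bp apart at 51.3% (43.2 to 59.2) and 54.4% (46.3 to 62.3). The median width of the strongest siControl peak was 736.5 bp in the closest class and 1044.5 bp in the widest. At the limit of the definition, 40 and 41 of 46 pairs with starts over 800 bp apart were occupied in siControl and siAATF, and 28 of 32 in each list with starts over 1000 and up to 1200 bp apart, just outside it.

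**Figure D2:**
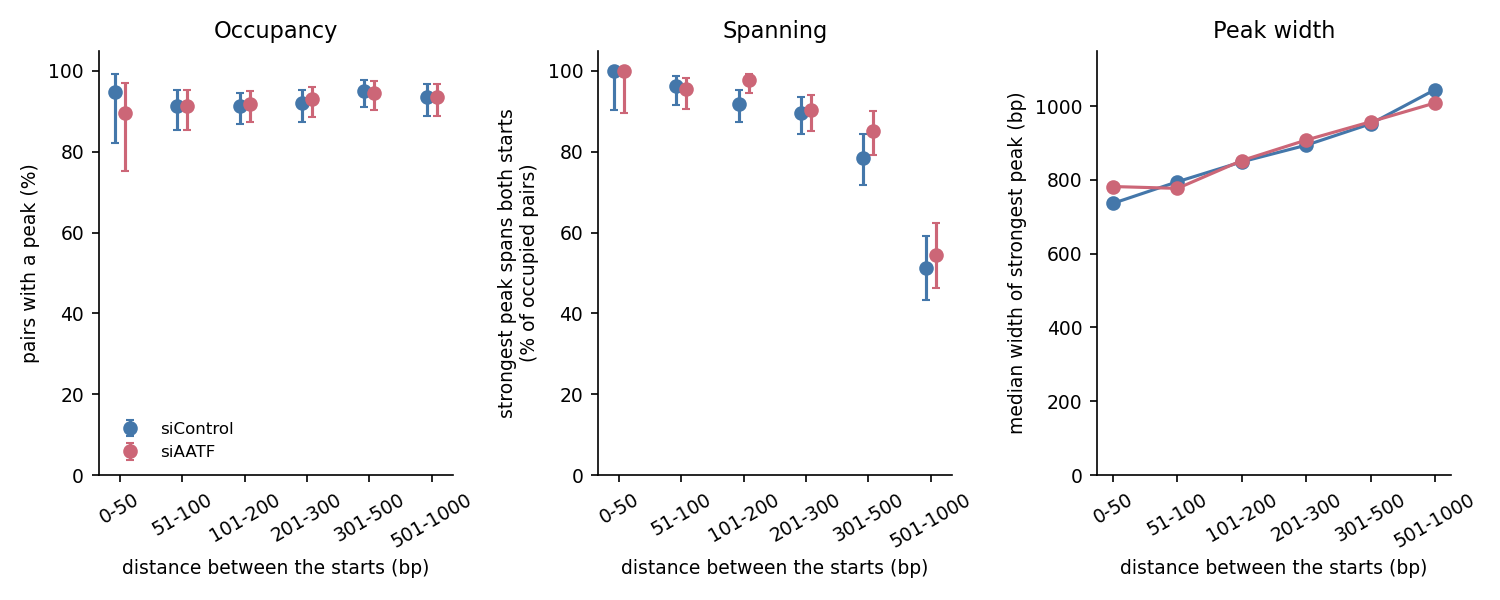
Divergent pairs in 6 classes of distance between the starts, siControl in blue and siAATF in red: the percentage with a peak, the percentage of occupied pairs whose strongest peak spans both starts (both with exact 95% intervals) and the median peak width in bp. Occupancy stays between 89.5% and 95.2%, whereas spanning goes from 100.0% to 51.3% in siControl and 54.4% in siAATF.

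Separate peaks at the 2 starts were rare. Only 7 pairs in siControl and 5 in siAATF had 2 or more peaks in the region. The 3 most widely spaced of those with 2 peaks in both lists were APBA3/MRPL54 (990 bp), UBQLN4/LAMTOR2 (984 bp) and THBS3/MTX1 (798 bp). At APBA3/MRPL54, an adaptor protein gene beside a mitochondrial ribosomal protein gene, the stronger peak lay 799 bp to the MRPL54 side of the midpoint, with a −log10 q of 77.5 in siControl and 70.1 in siAATF. The stronger peak lay on the UBQLN4 side, −581 bp from the midpoint in siControl (minus values lie toward the minus-strand gene), at UBQLN4/LAMTOR2, and on the MTX1 side, 609 bp away, at THBS3/MTX1.

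Peak midpoints scattered to both sides of the middle of the pair in like numbers. The midpoint of the strongest peak had a median offset of −3 bp in siControl and −2 bp in siAATF from the middle of the pair. It lay toward the minus-strand gene at 458 pairs in each list, and toward the plus-strand gene at 442 and 444. It was within 100 bp of the middle at 47.6% of occupied pairs in siControl and 49.1% in siAATF, and between the starts at 56.7% in each list. Spanning peaks reached a median of 340 and 337 bp past the minus-strand start and 324 bp past the plus-strand start in each list. At single-gene promoters, where only 1 direction carries a coding gene, the median offset was 20 bp (siControl) and 11 bp (siAATF) downstream of the start.

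The NRF-1 core was found at about 1 pair in 4. Of 974 pair windows, 268 held it with up to 1 mismatch (27.5%, 24.7 to 30.4), against 13.1% (12.6 to 13.6) of single-gene windows and 20.1% (18.3 to 22.01) of those divergent from a lncRNA. These windows were placed differently. A pair window was centred on the space upstream of both starts, and a single-gene window on its start, with as much sequence downstream as upstream. No share per start was computed. The exact palindrome was in 43 pair windows (4.41%) and in 2.02% of single-gene windows. As a control, a palindrome built in the same way from GCACG, which has the same bases and as many CpG steps, was found with up to 1 mismatch in 6.78% and 4.06%. The difference in core content was also seen within CpG classes: 22.8% (16.9 to 29.6) against 11.5% between 0.5 and 0.7, 26.5% (23.1 to 30.2) against 19.5% between 0.7 and 0.9, and 41.1% (33.1 to 49.3) against 25.05% at 0.9 and over.

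Most cores had a changed central base. With strands merged, 16 different words occurred over pair loci and single-gene promoters together. Over the 904 loci there were 338 cores. GCGCAGGCGC made up 119 of them (35.2%), GCGCACGCGC 66 (19.5%), the exact GCGCATGCGC 41 (12.1%), GCGCAAGCGC 40 (11.8%) and ACGCATGCGC 27 (7.99%). At single-gene promoters GCGCAGGCGC came to 36.2%, GCGCACGCGC to 18.8% and the exact word to 12.5%, while GCGCAAGCGC was at 6.27%. Among pair windows with a single core, the median siControl rank of the peak was 89.0 for GCGCAGGCGC (61 occupied of 64), 93.1 for GCGCACGCGC (40 of 41), 89.5 for the exact word (26 of 27) and 86.4 for GCGCAAGCGC (25 of 25).

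Cores lay mostly between the starts. Counting each pair, 272 of 363 cores (74.9%, 70.1 to 79.3) were there, in a span holding 29.7% of the bases searched, which is 939 cores per Mb against 133 per Mb in the rest of the windows. The part on the minus-strand gene's side held 47 and that on the plus-strand gene's side 44. Over the 904 loci, those between the starts lay a median of 48.0 bp from the nearer start, 131 nearer the minus-strand start and 120 nearer the plus-strand start. At single-gene promoters 78.3% of cores (76.8 to 79.7) lay upstream of the start, at a median position of −53.5 bp.

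**Figure D3:**
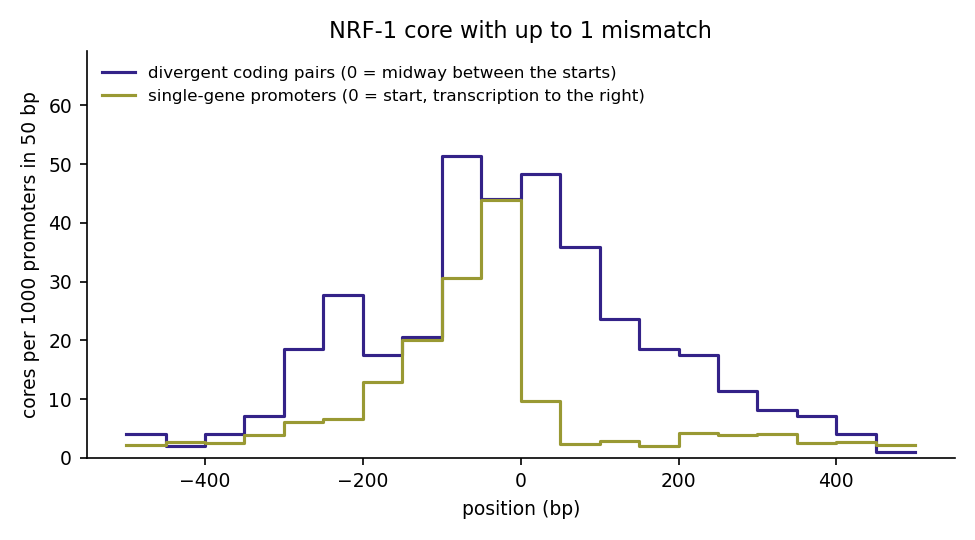
Cores with up to 1 mismatch per 1000 promoters in steps of 50 bp, around the middle of divergent pairs (violet) and around the start of single-gene promoters with transcription to the right (olive). Cores of pairs lie on both sides of the middle, with a highest step of 51.3 per 1000, whereas those of single-gene promoters are dense before the start and sparse after it, with 43.9 per 1000 in the last 50 bp before it and between 2.01 and 4.24 per 1000 in each step from 50 bp after it onward.

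Other promoter words differed as well. They were counted on both strands as exact letters, in the same windows and so with the same difference in placement. A match describes the sequence and not a bound factor. The ETS word CCGGAAG was in 45.9% of pair windows and 20.2% of single-gene windows, the YY1 word AAGATGGCG in 10.1% and 3.88%, and the CRE word TGACGTCA in 6.67% and 3.23%. The SP word GGGCGGG was in 78.4% and 62.0%, the NF-Y word CCAAT in 66.9% and 63.5%, and TATAAA in 13.2% and 24.2%. At single-gene promoters divergent from a lncRNA, whose median CpG ratio was 0.815, the ETS word was in 30.3%, the YY1 word in 5.22% and TATAAA in 13.1%. ETS factors include GABPA, also named nuclear respiratory factor 2.

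A core went with a strong peak, but most occupied pairs had none. Having no core means no match within 1 mismatch, so such a window may still hold a more divergent NRF-1 site. The ChIP-seq methods of the paper name no input or control library. Whether the weaker peaks without a core mark NRF-1 binding was not tested. Pairs with the exact palindrome had a median rank of 94.0 in siControl and 93.7 in siAATF, those with 1 mismatch 90.5 and 92.3, and those without a core 56.1 and 57.3. Even so, 641 of the 706 pairs without a core were occupied in each list (90.8%, 88.4 to 92.8), whereas 49.0% (48.3 to 49.8) of single-gene promoters without a core were in siControl. These shares were not matched for CpG ratio. Of 3819 single-gene windows with a ratio under 0.3, 15 held a core and 72 had a siControl peak, and only 13 pairs had such a ratio. Where a core was present, 262 of 268 pairs had a peak, at 42 of 43 with the exact palindrome and 220 of 225 with 1 mismatch. The ranks of single-gene promoters by core were close to those of pairs, at 93.7 with the exact palindrome, 91.2 with 1 mismatch and 55.9 without a core in siControl.

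Peak midpoints lay nearer to the core than to the middle of the pair at most pairs with closely spaced starts. Of the pairs with exactly 1 core and a peak, 191 in each list, the core lay inside the strongest peak at 189 in siControl and 190 in siAATF. The median distance from the peak midpoint to the core was 43.5 bp in siControl, against 93.0 bp to the middle of the pair, and 50.5 and 100.0 bp in siAATF. The core was the closer point at 64.9% of these pairs in siControl and 63.4% in siAATF. With starts up to 300 bp apart it was closer at 86 and 82 of 118, and with starts over 300 and up to 1000 bp apart at 38 and 39 of 73. The peak midpoint lay on the same side of the middle as the core at 149 pairs (78.0%, 71.5 to 83.7) in siControl and 153 (80.1%, 73.7 to 85.5) in siAATF.

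Over all occupied pairs, the median peak rank was a few points above that of single-gene promoters. The median rank was 68.4 (65.9 to 71.6) in siControl and 68.9 (67.1 to 73.9) in siAATF, with the bracketed interval of each median from order statistics, against 64.0 (63.0 to 64.7) and 64.7 (63.9 to 65.5). At single-gene promoters divergent from a lncRNA it was 67.3 (65.6 to 69.1) and 67.8 (65.9 to 69.9), with intervals that overlapped those of the pairs. A rank of 90 or more was reached at 18.9% of occupied pairs (16.4 to 21.6) in siControl and 20.3% (17.7 to 23.04) in siAATF, against 15.3% and 15.6% of single-gene promoters. Of the peaks, 844 in siControl (4.69%) and 841 in siAATF (4.56%) touched a pair region.

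The 5 strongest pairs were SMG6/SRR, SUGP2/ARMC6, CEP19/PIGX, CCDC127/SDHA and TRAPPC1/CNTROB. SMG6/SRR, for a nuclease of nonsense-mediated decay and serine racemase (chr17, starts 2207079 and 2207244), had a −log10 q of 107 in siControl and 94.0 in siAATF. SUGP2/ARMC6 (chr19, starts 19144326 and 19144412) had 107 and 93.9, with 4 cores in its window. CCDC127/SDHA (chr5, starts 218268 and 218435), where SDHA codes for the flavoprotein of respiratory complex II, also had 4 cores and stood at 103 and 88.8. TRAPPC1/CNTROB (chr17, starts 7835264 and 7835524), for a vesicle tethering subunit and a centriole protein, had 96.8 and 82.5. All 5 stayed at a rank of 99.0 or more in both lists.

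Well-known head-to-head pairs covered the whole range of strength. Of 20 pairs listed from textbook knowledge, 17 met the rule, 16 of them were occupied in both lists and 7 had a core, against 91.9% and 27.5% of all pairs. Mitochondrial pairs stood at both ends. HSPD1/HSPE1, the mitochondrial chaperonin and its lid (starts 539 bp apart), had a −log10 q of 58.5 in siControl and 53.4 in siAATF. SARS2/MRPS12, the mitochondrial seryl-tRNA synthetase and a mitochondrial ribosomal protein, had 68.9 and 69.7, and NFS1/ROMO1, the iron-sulfur cluster desulfurase and a regulator of mitochondrial reactive oxygen, 58.2 and 55.1. These 3 pairs held a core, and so did ATP5PF/GABPA, an ATP synthase subunit beside the ETS factor GABPA, at 38.2 and 31.8. Without a core, HARS1/HARS2, the cytosolic and mitochondrial histidyl-tRNA synthetases, had 34.8 and 29.3, SURF1/SURF2, with an assembly factor of cytochrome c oxidase, 8.43 and 8.15, and EMC8/COX4I1, with a subunit of that oxidase, 2.91 and 3.88.

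Pairs with genes of DNA replication and repair were likewise spread. PRKDC/MCM4, a DNA repair kinase and a subunit of the replicative helicase, had a −log10 q of 41.0 in siControl and 35.1 in siAATF, and NPAT/ATM, a histone gene activator and the kinase of the DNA break response, 46.9 and 46.3. Both pairs held cores. TMEM258/FEN1, with the flap endonuclease of replication, had 23.7 and 12.3, TEX14/RAD51C 14.1 and 9.38, and ZAR1L/BRCA2 8.01 and 12.9, the last 2 with genes of homologous recombination, and the windows of all 3 held no core. PPAT/PAICS, both for enzymes of purine synthesis, had 1 core and stood at 74.5 and 68.6. COL4A1/COL4A2, for chains of type IV collagen, had no core and 19.3 and 13.2. SIRT3/PSMD13, a mitochondrial deacetylase and a proteasome subunit, had 9.41 and 10.5, and PREPL/CAMKMT, a peptidase-like protein and the calmodulin methyltransferase, 10.2 and 14.1, both without a core. TAP1/PSMB9, of antigen processing, was the pair without a peak in either list.

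The lists of genes that NRF-1 is known to serve were rich in divergent pairs. Of 78 nuclear OXPHOS subunit genes 25 were in a pair (32.1%, 21.9 to 43.6), of 83 mitochondrial ribosomal protein genes 28 (33.7%, 23.7 to 44.9), of 50 respiratory chain assembly factors 18 (36.0%, 22.9 to 50.8), and of 33 genes of mitochondrial import and chaperones 10 (30.3%, 15.6 to 48.7), against 9.47% of all coding genes. Genes of DNA replication and repair were at 37 of 118 (31.4%), replication-dependent histones at 22 of 64 (34.4%) and RNA polymerase subunits at 10 of 30 (33.3%). Zinc finger genes (38 of 504, 7.54%), collagens (4 of 44, 9.09%), proteasome subunits (5 of 39, 12.8%) and aminoacyl tRNA synthetases (8 of 37, 21.6%, 9.83 to 38.2) were lower, and for collagens, proteasome subunits and zinc finger genes the interval held 9.47%. Where both partners of a pair were on a list, each counted as a gene, and the intervals treat them as separate.

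**Figure D4:**
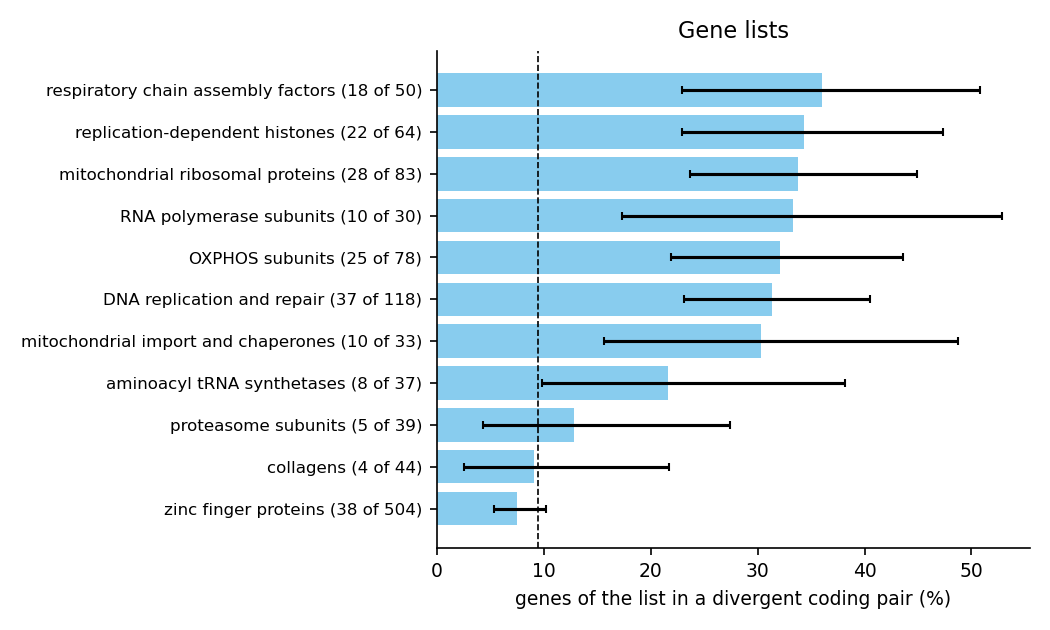
Percentage of the genes of 11 lists whose canonical start is in a divergent coding pair, with exact 95% intervals; the dashed line is the share of all coding genes, 9.47%. For 8 lists, from respiratory chain assembly factors (36.0%) to aminoacyl tRNA synthetases (21.6%), the interval lies above that line, and for the other 3 it includes it.

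In the mitochondrial and replication lists the shares of occupied genes were high whether or not a gene was paired. All 37 paired genes of DNA replication and repair had a peak in both lists, and 73 of 81 unpaired ones did. For OXPHOS subunits it was 23 of 25 paired genes in each list, with 50 of 53 unpaired ones in siControl and 49 in siAATF, and for mitochondrial ribosomal proteins 25 of 28 and 51 of 55. The gap was wide for histones, with 18 of 22 paired genes against 21 of 42 unpaired in siControl and 19 in siAATF, and for collagens, with 4 of 4 against 11 of 40 in siControl and 10 in siAATF. Paired genes were counted gene by gene although both partners share a region, so these paired counts exceed the number of separate promoters. COL4A1 and COL4A2, for instance, share 1 peak. Zinc finger genes were occupied at 36 of 38 paired and 339 of 466 unpaired promoters in siControl. In all, 1739 of 1877 genes in pairs and 9738 of 17942 others had a siControl peak.

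The 25 loci with an OXPHOS subunit gene showed no common strength. NRF-1 peaks were present at 23 of them in both lists, and 8 had a core, against 91.9% and 27.5% of all pairs. Of the 8, 7 led the order, with CCDC127/SDHA and ATP5PF/GABPA as given above, NDUFA8/MORN5 at a −log10 q of 92.0 in siControl and 80.1 in siAATF, ATP5ME/MYL5 at 75.3 and 68.5, ZMAT5/UQCR10 at 61.8 and 63.2, TIMM8B/SDHD at 52.4 and 46.8 and KIN/ATP5F1C at 48.7 and 40.6. The eighth, AKAP3/NDUFA9, had 19.4 and 19.2. The 2 strongest without a core were ATP5PD/KCTD2 at 26.7 and 25.8 and NDUFB11/RBM10 at 22.5 and 19.1.

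Weaker peaks lay at 13 further OXPHOS loci, all without a core. NDUFA2/IK, TATDN1/NDUFB9, LRRC41/UQCRH, WDR77/ATP5PB, NDUFA7/RPS28 and ATP5MK/PDCD11 had a siControl −log10 q between 5.35 and 13.5. RNF113A/NDUFA1, GDF9/UQCRQ, EMC8/COX4I1, NDUFB1/CPSF2, TSSK6/NDUFA13, NDUFS1/EEF1B2 and KBTBD4/NDUFS3 were between 1.98 and 3.89, near the weak end of the list. HYCC2/NDUFB3 and MRPL47/NDUFB5, with subunits of complex I, had no peak in either list. MRPL47/NDUFB5 was also 1 of 4 loci with a listed mitochondrial gene on both sides; the others, HSPD1/HSPE1, TIMM8B/SDHD and MRPL46/MRPS11, were occupied in both lists.

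Nearly all occupied pairs were occupied in both siControl and siAATF cells. Of the 903 pairs occupied in siControl, 895 were also occupied in siAATF (99.1%, 98.3 to 99.6), against 97.1% (96.8 to 97.4) of occupied single-gene promoters. A peak in siControl alone was found at 8 pairs (0.821%), with 1.53% of all coding promoter regions as background, and in siAATF alone at 8 pairs (0.821%), with 1.36% as background. These 16 pairs with a peak in only 1 list became 51 when only peaks with a −log10 q of at least 5 were counted, and 57 with the 10000 strongest peaks of each list. The share over all coding promoter regions was not counted at these thresholds, so the 51 and 57 have no background beside them. The peak midpoint differed between the lists by a median of 31.0 bp.

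The pairs with a peak in 1 list had mostly weak peaks. In siControl alone, CCDC122/LACC1, MRPL27/EME1, CIR1/SCRN3 and KCTD19/LRRC36 had a −log10 q between 2.996 and 3.47. OBSL1/INHA reached 16.8, but this peak had its midpoint at −1122 bp from the middle of the pair and touched only the flank on the OBSL1 side. In siAATF alone, XNDC1N/RNF121, KLHL28/TOGARAM1, CWC15/KDM4D, TYW5/MAIP1 and PIGN/RELCH were between 2.29 and 4.78. These are the 5 strongest loci of each kind, and 0 of the 10 windows held a core.

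Ranks differed little between the lists. Over the 895 pairs occupied in both, the percentile rank in siAATF minus that in siControl had a median of 0.870 points (0.668 to 1.06) and quartiles of −1.12 and 3.41, with 562 pairs higher in siAATF and 333 lower. At single-gene promoters the median was 0.355 points (0.274 to 0.448). The siAATF list was longer (18454 against 18014 peaks). A peak with as many stronger peaks in both lists therefore has a higher percentile rank in siAATF. The changes were not adjusted for this, so the numbers of pairs higher and lower do not show a gain in strength. A difference of over 20 points was seen at 13 pairs (1.45%), with 2.5% of all coding promoter regions occupied in both lists as background. These 13 were 11 rises and 2 falls, all among the 633 pairs without a core. The scale ends at 100, so that a pair with a siControl rank over 80 could not rise by that much. This held for 224 of the 262 pairs with a core (85.5%) and for 107 of the 633 without one (16.9%), and the 2 groups were therefore not compared. A rank describes 1 library against another, and a shift of this size was not tested.

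**Figure D5:**
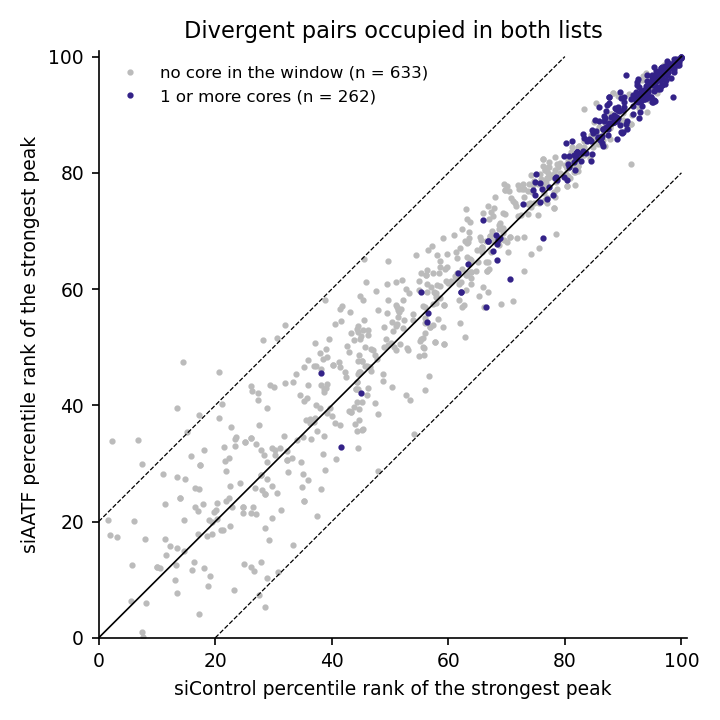
Percentile rank of the strongest peak in siControl (horizontal) and siAATF (vertical) for the 895 divergent pairs occupied in both lists, in violet with a core and in grey without one. The solid line marks equal ranks and the dashed lines 20 points up or down; 13 pairs lie outside the dashed lines, and 224 of the 262 pairs with a core have a siControl rank over 80, from which the upper line cannot be passed.

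The largest shifts started in the lower and middle part of the list. The largest falls were IMMP1L/ELP4, from rank 28.6 to 5.36, ORC1/PRPF38A, from 27.6 to 7.45, SREK1IP1/CWC27, from 30.8 to 11.3, ENTR1/PMPCA, from 47.8 to 28.7, and WBP11/C12orf60, from 54.1 to 35.0. They include genes for a mitochondrial inner membrane protease subunit (IMMP1L), a mitochondrial processing peptidase subunit (PMPCA) and the largest subunit of the origin recognition complex (ORC1). Among the largest rises were SDF2/SUPT6H, from 2.26 to 33.8, KBTBD4/NDUFS3, from 6.77 to 33.99, XRRA1/SPCS2, from 13.5 to 39.6, and FAM76B/CEP57, from 20.6 to 45.8. NDUFS3 is a core subunit of complex I. Among the 23 OXPHOS loci occupied in both lists, 14 had a higher and 9 a lower rank in siAATF. The median change was 1.09 points, with a range from −12.3 at RNF113A/NDUFA1 to 27.2 at KBTBD4/NDUFS3. This median was likewise not adjusted for the longer siAATF list, so it does not show a gain at these loci.

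A small number of loci had no peak. Neither list had a peak at 60 of 904 loci. Of these, 14 had a CpG ratio under 0.5, against 7 of the 830 loci occupied in both lists, and 6 held a core. They include pairs with tissue-restricted genes, such as DUOX2/DUOXA2 of the thyroid and ABCG5/ABCG8, the sterol transporter of liver and gut, and pairs with broadly expressed genes, such as COG4/SF3B3, of Golgi transport and splicing, and ALKBH1/SLIRP, all picked as examples after the values were seen. BOLA2/SLX1B and BOLA2B/SLX1A are near-identical copies on chromosome 16, and how reads that match both copies were placed is not given in the sources used here.

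A further 12 of the 60 lay close together on chromosome 6. Between 29 and 34 Mb, which holds the major histocompatibility complex, 0 of 12 pairs were occupied in either list (upper limit 26.5%), although 10 of the 12 had a CpG ratio of 0.5 or more and 3 held a core. They include housekeeping pairs such as VPS52/RPS18, PPP1R10/MRPS18B, NELFE/SKIC2 and DXO/STK19, as well as TAP1/PSMB9. Of the 160 single-gene promoters there, whose median CpG ratio was 0.364, 5 were occupied in each list. The hg19 assembly also gives this stretch as alternative haplotype sequences, on which the siControl list had 16 peaks and the siAATF list 18, over 5 haplotypes, beside 11 and 10 peaks in the stretch itself. Its part in the missing peaks was not tested. Without this stretch 903 of 962 pairs were occupied in each list (93.9%, 92.2 to 95.3).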

How the data were processed

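NRF-1 ChIPmentation libraries of U251 cells (siControl and siAATF) had been aligned to hg19 with Bowtie2 and peaks called with MACS2 by the authors (nf-core/atac-seq pipeline, default parameters per the study's methods). Of the deposited broad peak lists, the fold enrichment (a ratio over background) and the −log10 q value were used as deposited. Read depth is unknown. Peaks were overlapped with promoter regions by at least 1 base. Starts came from GENCODE release 44 lifted to GRCh37, whose sequence is that of hg19, and 128 siControl and 118 siAATF peaks on sequences outside the assembly file could not meet a region. Calculations used Python 3.11.15, numpy 2.4.6, pandas 2.3.3, scipy 1.17.1 and pysam 0.24.0, and were tested on simulated data.

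No test between conditions was possible with 1 list each, and differences between promoter classes are given with intervals only. Pairs named were those of the textbook list, the 5 strongest, the 5 strongest in 1 list alone, the 5 largest rank falls and rises, pairs with an OXPHOS subunit gene, the 3 widest with 2 peaks, and those with mitochondrial genes on both sides. Overlapping pairs of a locus count once among named pairs, and 1 pair that these rules name is not reported here. The members, gene lists and rules were chosen with earlier results of these data known. The alternatives covered peak thresholds, window and pair definitions, rank measure and core matching.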

Additional observations from a re-analysis of the deposited data

How the results depend on the processing

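No paired analysis was possible because siControl and siAATF each came as a single list, and no test was run. Of 62 alternative values, 26 lay within the interval of the main value (for counts, within 1.5 times of it) and 36 lay outside. Only the median change in rank could change sign, and it stayed positive. The direction of the comparison between pairs and single-gene promoters was the same under each alternative run for both. With peaks of a −log10 q of at least 5, occupancy was 78.5% (siControl) and 79.5% (siAATF) at pairs and 45.6% and 45.4% at single-gene promoters, and with the 10000 strongest peaks of each list 69.4% and 70.1% against 39.2% and 39.0%. Pairs with a peak in only 1 list, 16 as reported, then numbered 51 and 57, without a count over all coding promoter regions at these thresholds. Single-gene occupancy was 51.8% and 51.7% with the peak midpoint in the window, 53.5% and 53.3% with no other coding start within 1000 bp, and 75.9% and 75.7% weighted to the CpG classes of the pairs, an alternative chosen after seeing the data, as were leaving out the chromosome 6 stretch and taking 1 pair per locus (92.6% in each list).

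Ranked by fold enrichment, the median rank was 65.5 and 66.6 at pairs and 62.4 and 63.3 at single-gene promoters, and with −log10 q of at least 5 it was 65.0 and 65.6 against 56.0 and 56.6. The median change in rank was 0.703 by fold enrichment and 0.785 at the stricter q. These changes were not adjusted for the length of the lists. Peaks spanned both starts at 85.5% and 88.2% of occupied pairs at the stricter q and at 89.4% and 92.6% with starts at most 500 bp apart. Pairs with 2 or more peaks numbered 1 and 1 at the stricter q, and 2 and 0 with starts at most 500 bp apart. The core was found in 4.41% of pair and 2.02% of single-gene windows as an exact match, and in 22.9% and 10.8% within 250 bp of the centre. Read depth is unknown, so a missing peak may be one below detection, and with 1 list per condition no difference between siControl and siAATF has a replicate error.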
